A study of Homo sapiens with 45 samples.

Results

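The protein-coding keratin genes were followed across 15 human breast cancer cell lines. Members were the rows of the deposited count table whose GENCODE symbol is KRT followed by a number from 1 to 86, with keratin-associated proteins and pseudogenes left out. The rule gave 54 genes of the 64485 rows, of which 19910 are protein-coding. Type I keratins numbered 28 and type II keratins 26. The type II genes and KRT18 lie together on chromosome 12 (27 members), and the other type I genes on chromosome 17 (27 members).

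The study sequenced total RNA, depleted of ribosomal RNA, from untreated lines with 3 libraries each, 45 in all. The series concerns MYC and mitochondrial complex I, and the labels give every line as wild-type and epithelial. BT-549, HCC38, HCC70, HCC1143, HCC1187, HCC1395, HCC1806 and HCC1937 were grown in RPMI 1640, with insulin added for BT-549. All 5 lines of the MDA-MB name were grown in L-15, with insulin and glutathione added for MDA-MB-436. BT-20 was grown in EMEM with insulin and Hs578T in DMEM. Each line is 1 established tumor line, and no line without cancer was included. Whether separate cultures gave the 3 libraries of a line is not stated in the labels, so the tests measure the spread between these libraries, which may be technical.

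Keratins are the intermediate filament proteins of epithelial cells. A filament is built from pairs of 1 acidic type I chain and 1 basic type II chain, so cells need partners of both types. KRT8 and KRT18 are the pair of simple epithelia, joined in the breast by KRT7 and KRT19 in luminal cells. KRT5 and KRT14 are the pair of basal and myoepithelial cells, and pathologists use them with KRT17 to describe basal-like breast tumors. KRT6A, KRT6B, KRT6C, KRT16 and KRT17 are induced in wounded or stressed epidermis, and KRT81 to KRT86 are keratins of hair.

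Several members are close copies, which limits how reads can be assigned to one of them. The stretches that follow come from the coding sequences of GENCODE 29 transcripts on GRCh38 and are shown because the lines differed in the levels of these copies. Capitals mark positions at which the members differ, and all are written 5′ to 3′ on the coding strand. KRT6A (chr12:52487174-52493257, minus strand), KRT6B (chr12:52446651-52452126, minus strand) and KRT6C (chr12:52468516-52473785, minus strand) are shown from coding base 663 to 722, where they differ at 9 positions.
KRT6A: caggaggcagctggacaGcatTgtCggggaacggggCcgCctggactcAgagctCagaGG
KRT6B: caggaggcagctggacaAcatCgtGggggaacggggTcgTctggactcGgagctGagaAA
KRT6C: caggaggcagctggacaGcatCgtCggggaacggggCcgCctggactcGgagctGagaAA

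The 3 coding sequences are each 1695 bases long. KRT6A and KRT6B were identical at 97.5% of bases, KRT6A and KRT6C at 97.9%, and KRT6B and KRT6C at 98.5%. Among all 50-base stretches of the annotated transcripts, 32.1% of those of KRT6A, 47.1% of those of KRT6B and 44.4% of those of KRT6C also occurred in another annotated gene. A read from such a stretch cannot be assigned to 1 gene, and nothing in the sources used here says how the authors treated it.

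The hair keratins KRT81 (chr12:52285913-52291534, minus strand), KRT83 (chr12:52314301-52321398, minus strand) and KRT86 (chr12:52249300-52309163, plus strand) are a looser set. They are shown over 60 aligned bases of coding sequence, which start at base 1249 in KRT81 and KRT86 and at base 1264 in KRT83, and which differ at 16 positions.
KRT81: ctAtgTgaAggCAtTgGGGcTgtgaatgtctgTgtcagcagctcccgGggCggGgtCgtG
KRT83: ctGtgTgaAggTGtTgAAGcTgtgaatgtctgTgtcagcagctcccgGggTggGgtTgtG
KRT86: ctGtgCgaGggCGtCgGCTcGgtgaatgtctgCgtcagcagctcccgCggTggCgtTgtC

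KRT81 was identical to KRT83 at 92.7% of aligned bases and to KRT86 at 92.9%. The 50-base stretches shared with other genes made up 43.7% of KRT81 and 37.5% of KRT86. KRT86 also overlaps KRT81 on the opposite strand and KRT7 on its own strand. The strand setting of the counting is not given in the sources used here, so that reads in these overlaps cannot be told apart.

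Levels are CPM (counts of a gene per 1000000 counts of the library, scaled by TMM), given as the mean and SD of 3 libraries. Libraries held 2312138 to 14653677 counts, with a median of 6263573. A gene was tested when it passed edgeR's filterByExpr with a minimum count of 10, which 24 members did. Those 24 comprised 11 type I and 13 type II keratins, and a member kept through the lines where it is high is likely to differ among lines. All 24 differed among the 15 lines at an adjusted p under 0.05 in edgeR's quasi-likelihood F test with Benjamini-Hochberg adjustment, against 98.2% of all 20587 genes tested, so the share of members sets them apart little from other genes. The size of the differences was large. A fold was taken only where the lowest line had at least 10 counts of the gene. Among such members the line means of KRT19 spanned 5271-fold, those of KRT8 1928-fold and those of KRT15 1403-fold. Those of KRT7 spanned 1101-fold and those of KRT18 1011-fold, while those of KRT10 spanned 4.07-fold. KRT16 (0.165 to 3400 CPM), KRT5 (0.134 to 2454), KRT6A (0.134 to 2109) and KRT6B (0.0947 to 1697) also ranged widely, with too few counts in the lowest line for a fold.

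**Figure D1:**
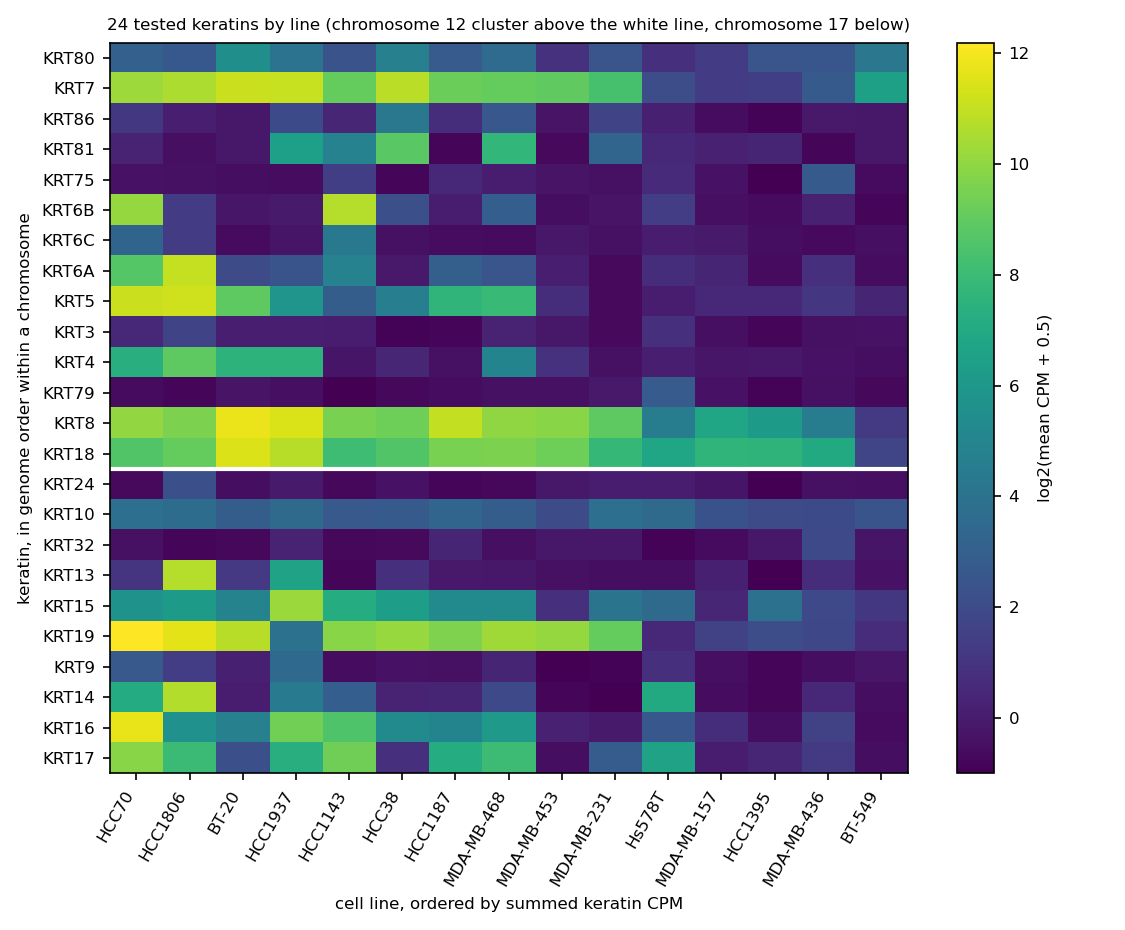
Mean level of the 24 tested keratins (rows, in genome order) in each of the 15 lines (columns, ordered by summed keratin CPM), coloured by log2 of the mean CPM of 3 libraries plus 0.5. KRT7, KRT8 and KRT19 are bright from HCC70 to MDA-MB-231 except for KRT19 in HCC1937, while KRT18 is bright in every line but BT-549.

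The summed keratin level ran from 130 ± 27.3 CPM (SD, n = 3) in BT-549 to 15924 ± 568 CPM in HCC70. HCC1806 reached 14885 ± 1193, BT-20 11343 ± 1310 and HCC1937 9203 ± 1096. HCC1143, HCC38, HCC1187 and MDA-MB-468 lay between 4537 and 5447 CPM. MDA-MB-453 had 3167 ± 309 CPM and MDA-MB-231 1632 ± 483. The remaining lines held 418 ± 120 CPM (Hs578T), 333 ± 4.36 (MDA-MB-157), 294 ± 5.94 (HCC1395) and 201 ± 8.7 (MDA-MB-436). In bulk RNA, fewer cells that express a keratin and less keratin RNA per cell cannot be told apart.

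EdgeR's quasi-likelihood test set each line against the mean of the other 14, and a member was called at an adjusted p under 0.05 together with a log2 fold change of 1 or more in size. These comparisons share libraries. A few lines with a high level raise the mean of the others, so a member can be called lower in most lines. KRT81 and KRT4 were each called lower in 10 lines and KRT6B in 9. The KRT81 mean of HCC70, 0.682 CPM, was itself the median of the line means. Some called members were near the floor, such as KRT32, called higher in HCC1187 (0.791 CPM) and HCC1937 (0.69 CPM). In HCC1806, 15 of 24 keratins were higher and 1 lower, against 15.9% and 13.7% of all genes. KRT13 and KRT14 led there, with log2 fold changes of 11.64 ± 0.11 (SE) and 10.36 ± 0.14, and KRT81 was the lower gene (-3.22 ± 0.59). This SE is derived from the F statistic of the test and does not give the spread of the 3 libraries of a line. In HCC70, 15 were higher and 1 lower (17.7% and 22.9% of all genes), led by KRT6B (9.94 ± 0.09) and KRT16 (8.72 ± 0.10), with KRT81 lower again (-1.69 ± 0.43). HCC1937 also had 15 higher and 2 lower (14.5% and 10.8%). Its leading genes were KRT13 (7.23 ± 0.15) and KRT4 (6.39 ± 0.10), and its lower genes were KRT19 (-3.11 ± 0.18) and KRT6B (-2.10 ± 0.37).

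HCC1143 had 12 higher and 2 lower (18.4% and 11.3% of all genes). KRT6B (10.59 ± 0.09) and KRT17 (5.91 ± 0.12) stood highest, while KRT4 (-3.19 ± 0.40) and KRT5 (-1.04 ± 0.25) were lower. MDA-MB-468 had 12 higher and 0 lower (14.7% and 9.19%), led by KRT81 (7.20 ± 0.12) and KRT17 (4.54 ± 0.14). For its lower genes edgeR gave 0 also at an unadjusted p under 0.05, and DESeq2 gave 0. In BT-20, 9 were higher and 3 lower (14.2% and 11.3%), with KRT4 (6.39 ± 0.10) and KRT5 (5.51 ± 0.11) at the top and KRT6B and KRT81 (both -2.40) at the bottom. HCC1187 had 9 higher and 3 lower (16.4% and 12.5%). KRT5 (4.14 ± 0.12) and KRT17 (3.58 ± 0.15) led there, and KRT81 (-5.02 ± 0.74) and KRT4 (-3.77 ± 0.43) were lowest. HCC38 had 9 higher and 4 lower (13.8% and 10.2%), from KRT81 (8.36 ± 0.11) and KRT86 (4.69 ± 0.22) to KRT6A (-2.92 ± 0.51) and KRT17 (-3.65 ± 0.37).

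The other lines leaned the other way. MDA-MB-453 had 4 higher and 12 lower (17.7% and 14.6% of all genes): KRT19 (3.50 ± 0.10) and KRT8 (1.65 ± 0.10) were higher, and KRT17 (-6.32 ± 0.50) and KRT9 (0 counts) were among the lower genes. MDA-MB-231 had 4 higher and 7 lower (15.0% and 10.5%), with KRT19 (2.41 ± 0.11) and KRT81 (2.34 ± 0.23) higher and KRT14 (0 counts) and KRT5 (-7.04 ± 0.47) lower. Hs578T had 5 higher and 10 lower (20.9% and 9.56%). KRT14 (6.41 ± 0.18) and KRT79 (5.29 ± 0.40) were higher and KRT19 (-7.54 ± 0.28) and KRT7 (-5.83 ± 0.28) lower. The 5 higher members of Hs578T also counted KRT3 (1.22 CPM) and KRT9 (1.24 CPM), both near the floor. MDA-MB-436 had 2 higher, KRT75 (4.41 ± 0.39) and KRT32 (3.72 ± 0.33), and 13 lower (16.4% and 10.9%), led by KRT19 (-5.55 ± 0.22) and KRT7 (-5.17 ± 0.26). BT-549 had 1 higher, KRT80 (1.56 ± 0.17), and 12 lower (13.3% and 10.7%), led by KRT8 (-7.90 ± 0.24) and KRT19 (-7.10 ± 0.26). By edgeR, 0 of 24 keratins were higher and 15 lower in HCC1395 (14.4% and 17.7% of all genes), and 0 higher and 13 lower in MDA-MB-157 (20.0% and 12.4%). For the higher genes of both lines edgeR gave 0 also at an unadjusted p under 0.05, and DESeq2 gave 0. KRT7 was lowest in both, at -6.76 ± 0.30 and -6.92 ± 0.31, followed by KRT16 in HCC1395 (-6.18 ± 0.54) and KRT19 in MDA-MB-157 (-5.97 ± 0.24). The 15 lower members of HCC1395 include KRT24 and KRT75, at 0 counts there. The medians of their line means were only 0.247 and 0.271 CPM, near the floor.

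A lower call could not be made by this test for KRT9, KRT13, KRT14, KRT24, KRT75 and KRT79 in lines other than the one at 0. Each of these has 1 line with 0 counts in all 3 libraries, the mean log level of the other lines then has no lower bound, and their low lines are therefore given as values. Their fitted fold changes in the line at 0 and in the lines where they are higher depend on the prior count. DESeq2 called KRT14 lower in 9 lines, KRT13 in 6 and KRT9 in 3, each count including the line at 0. It called KRT24 and KRT75 lower only in their line at 0, HCC1395, and KRT79 lower in 0 lines. How far its calls depend on the line at 0 was not tested.

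Sequencing runs 1 and 2 held HCC1143, HCC38, Hs578T and MDA-MB-231, and runs 3 to 5 the other 11 lines. Against the lines of its own runs only, with the run as a block in edgeR, KRT81 was no longer called lower in BT-20 (log2 fold change -1.18, adjusted p 0.0798) or HCC70 (-0.49, adjusted p 0.40), and KRT6A was no longer called lower in HCC38 (-2.02, adjusted p 0.0675). The number of higher keratins became 3 in Hs578T and 2 in MDA-MB-231 in that comparison.

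KRT8, the type II chain of simple epithelia, was present in every library. It was highest in BT-20, at 4121, 2987 and 3761 CPM in the 3 libraries (mean 3623 ± 579). HCC1937 (2743 ± 330) and HCC1187 (1987 ± 202) followed, and the libraries of these lines do not overlap. BT-549 had 2.06, 1.78 and 1.80 CPM, from 39 counts in all. Of the 14 steps between neighbours in the order of KRT8 levels, 5 had overlapping ranges. KRT8 was higher in 9 lines and lower in 5.

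KRT18, the type I partner that lies beside KRT8 in the opposite direction, broadly followed it in the order of the lines and fell less in several low lines. BT-20 led again with 3289, 2706 and 2772 CPM (mean 2922 ± 319), and BT-549 was lowest with 2.23, 1.94 and 4.50. Its mean was over 100 CPM in all 14 lines other than BT-549. MDA-MB-436 had 128, 129 and 132 CPM of KRT18 beside 24.1, 19.3 and 27.6 CPM of KRT8. HCC1395 had 188, 182 and 193 CPM of KRT18 beside 63.7, 77.5 and 73.6 of KRT8. Hs578T had 152, 65.1 and 107 CPM of KRT18 beside 32.1, 15.6 and 19.7 of KRT8. In all 3 lines the KRT18 libraries lay above the KRT8 libraries of the same line.

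The ratio of KRT8 to KRT18 counts was 0.183 in MDA-MB-436, 0.211 in Hs578T, 0.382 in HCC1395, 0.544 in MDA-MB-157 and 0.747 in BT-549. It was 2.74 in HCC70 and in HCC1143, 2.69 in HCC1187 and 2.17 in MDA-MB-231. Per base of coding sequence, the log2 ratio of KRT8 to KRT18 was -2.71 ± 0.25 (SD over 3 libraries) in MDA-MB-436 and -2.49 ± 0.19 in Hs578T, and it was 1.20 ± 0.07 in HCC70 and 1.19 ± 0.27 in HCC1143. The 3 libraries of these low lines ran from -2.98 to -2.30, and those of the high lines from 0.87 to 1.37, so they did not overlap. Per base of all annotated exons the same log2 ratios were -3.56, -3.34, 0.36 and 0.34, because the exons of KRT8 outside its coding sequence are long. The difference between lines does not depend on this choice. KRT8 and KRT18 overlap at their starts on opposite strands, and 50 pseudogenes of KRT8 and 68 of KRT18 are annotated. Over all libraries these pseudogenes held 2.68% and 1.52% of the counts of gene and pseudogenes together. In BT-549 the KRT8 pseudogenes had 264 counts beside 39 for KRT8, and the KRT18 pseudogenes 164 beside 65, so the KRT8 and KRT18 values of BT-549 rest on few reads.

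**Figure D2:**
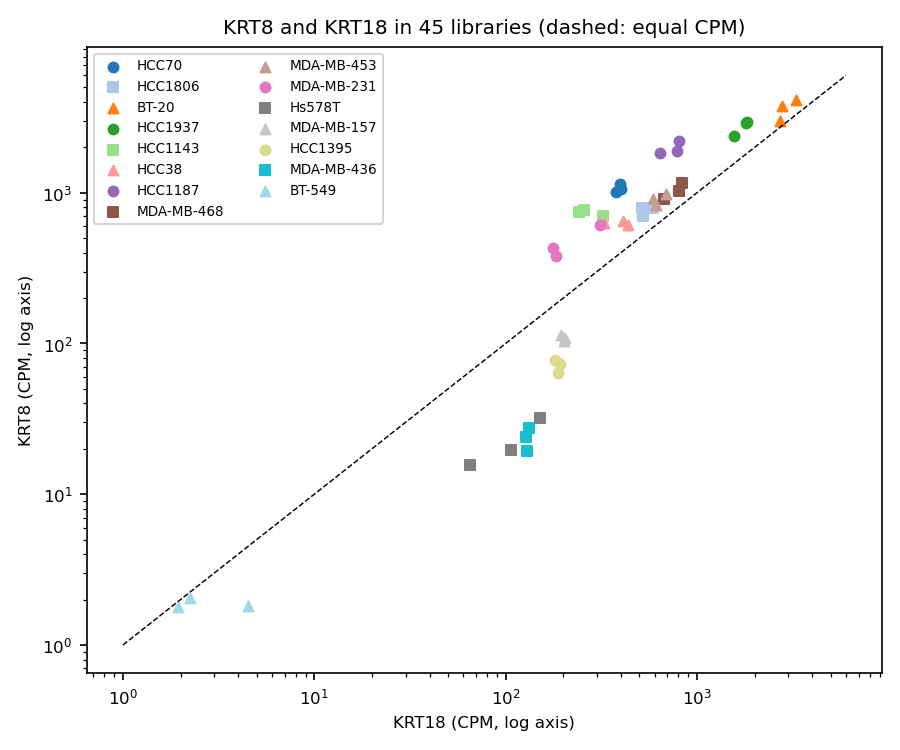
KRT8 against KRT18 (CPM, both axes logarithmic) in the 45 libraries, with a colour and symbol for each line and a dashed line at equal CPM. The libraries of MDA-MB-157, HCC1395, Hs578T and MDA-MB-436 lie below the dashed line, with KRT18 means from 108 to 200 CPM and KRT8 means from 22.4 to 109 CPM. Those of BT-549 also lie below it, with means of 2.89 CPM for KRT18 and 1.88 CPM for KRT8.

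KRT19, a small type I keratin without a tail domain, is a luminal marker in the breast. It reached 4616, 5077 and 4357 CPM in HCC70 (mean 4683 ± 365), which does not overlap HCC1806 (3222 ± 400) or BT-20 (1782 ± 146). KRT19 lay between 544 and 1277 CPM in HCC38, HCC1143, HCC1187, MDA-MB-231, MDA-MB-453 and MDA-MB-468. HCC1937 was the exception among lines rich in simple keratins. Its KRT19 libraries had 17.4, 15.1 and 13.8 CPM (mean 15.4 ± 1.84), beside 2743 CPM of KRT8 and 1727 CPM of KRT18. Hs578T had the lowest KRT19 mean, 0.889 ± 0.327 CPM.

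KRT7, the type II keratin of glandular epithelium, was highest in BT-20 (2536, 2273 and 1836 CPM) and HCC1937 (2481, 2184 and 1920 CPM), which overlap. KRT7 was 1838 ± 227 CPM in HCC38, 1545 ± 84.9 in HCC1806 and 1238 ± 30 in HCC70. BT-549 kept 93.6, 65.9 and 115 CPM of KRT7 while its KRT8, KRT18 and KRT19 were each under 5 CPM in every library. HCC1395 (2.25 ± 0.533), MDA-MB-157 (2.01 ± 0.704), Hs578T (3.82 ± 1.22) and MDA-MB-436 (6.15 ± 1.81) were lowest. In MDA-MB-231, 1 library had 553 CPM of KRT7 and the others 210 and 214. The same library was also highest for KRT8 (615 beside 433 and 380) and KRT18 (313 beside 176 and 184).

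KRT5, the type II keratin of basal cells, covered a wide range, and 8 of the 14 steps between neighbours in its order had overlapping ranges. HCC1806 had 2629, 2397 and 2336 CPM (mean 2454 ± 154) and HCC70 2319, 2207 and 2337 (mean 2288 ± 70.5), and their ranges overlap. BT-20 followed with 575, 468 and 416 CPM, MDA-MB-468 with 228, 198 and 288, and HCC1187 with 223, 197 and 182. HCC1937 (59.1 ± 2.13), HCC38 (24.2 ± 6.99) and HCC1143 (6.99 ± 0.914) were lower. The other 7 lines had between 0.134 and 1.65 CPM, and MDA-MB-231 only 2 counts in all. The KRT5 call in HCC1143 was close to the limit: its log2 fold change was -1.04, it was between -0.99 and -0.94 with DESeq2's size factors, with DESeq2's test, with a stricter filter or without replicate 3, and it turned to 2.54 against the 3 other lines of its own sequencing runs.

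KRT14, the type I partner of KRT5, followed KRT5 only in part from line to line. HCC1806 had 1916, 1577 and 1479 CPM (mean 1658 ± 229), near its KRT5 level. HCC70 had 142, 140 and 134 CPM (mean 139 ± 4.37), with 16.5 KRT5 counts per KRT14 count. BT-20 had 0.465, 0.912 and 0.158 CPM of KRT14 beside 486 CPM of KRT5, from 10 counts of KRT14 in all, and HCC1187 had 13 counts beside 3335 of KRT5. MDA-MB-468 had 3.31 ± 1.34 CPM of KRT14, which did not pass (log2 fold change 0.73 ± 0.36, adjusted p 0.0856 by edgeR). In these 3 lines KRT14 was low in every library where KRT5 was high.

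Hs578T showed the reverse pair. Its libraries had 133, 201 and 56.3 CPM of KRT14 (mean 130 ± 72.3) and 0.263, 0.899 and 0.365 CPM of KRT5, from 1994 and 7 counts. KRT17 was also high there, at 148, 97.7 and 49 CPM. The replicates of Hs578T spread widely for both genes, and the lowest KRT14 library still lay above every library of BT-20, HCC1187, MDA-MB-468, HCC1937 and HCC1143. The library with the most KRT14 has the fewest counts of the series. Without it, KRT14 stayed called higher in Hs578T. All 9 fibroblast markers listed were higher in Hs578T than in the mean of the other lines (20.9% of all genes were), with a summed level of 3617 CPM. MDA-MB-157 had 7 higher and 0 lower (20.0% and 12.4% of all genes) and 1907 CPM. BT-549 had 5 higher and 1 lower (13.3% and 10.7%) and 518 CPM. In these 2 lines KRT14 was 0.18 and 0.202 CPM and KRT17 0.538 and 0.204 CPM. The part of the fibroblast markers in the keratin pattern was not tested.

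KRT17, a type I keratin of basal-like tumors and of stressed skin, was highest in HCC70 (915, 965 and 903 CPM) and HCC1143 (560, 746 and 627 CPM), which do not overlap. MDA-MB-468 (266 ± 35.2), HCC1806 (254 ± 22.6), HCC1937 (160 ± 19.7) and HCC1187 (143 ± 18.6) followed. BT-20 had 4.12 ± 1.11 CPM and HCC38 1.28 ± 0.464, low values for lines rich in KRT7 and KRT8. BT-549 had 5 counts and MDA-MB-453 4 counts in all, which put them 247-fold (95% interval 106 to 761, counting error only) and 234-fold (91.4 to 859) under the median of the other lines. That median, 55.9 CPM, fell in a wide gap between Hs578T (98.1 CPM) and MDA-MB-231 (6.61 CPM). Both folds therefore depend strongly on the line taken for comparison, which the intervals do not cover.

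KRT15, a type I keratin of basal cells in stratified epithelia, stood out in HCC1937, with 1367, 1238 and 977 CPM (mean 1194 ± 199). The next line, HCC1143, had 186, 87 and 159 CPM. HCC38 (84.4 ± 11.7), HCC1806 (72.1 ± 7.02) and HCC70 (53.7 ± 2.37) were also called higher. KRT15 was still 14.4 ± 0.983 CPM in HCC1395 and 16.1 ± 1.58 in MDA-MB-231, where KRT5 was 0.942 and 0.134 CPM. MDA-MB-157 was lowest with 0.851 ± 0.37 CPM.

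**Figure D3:**
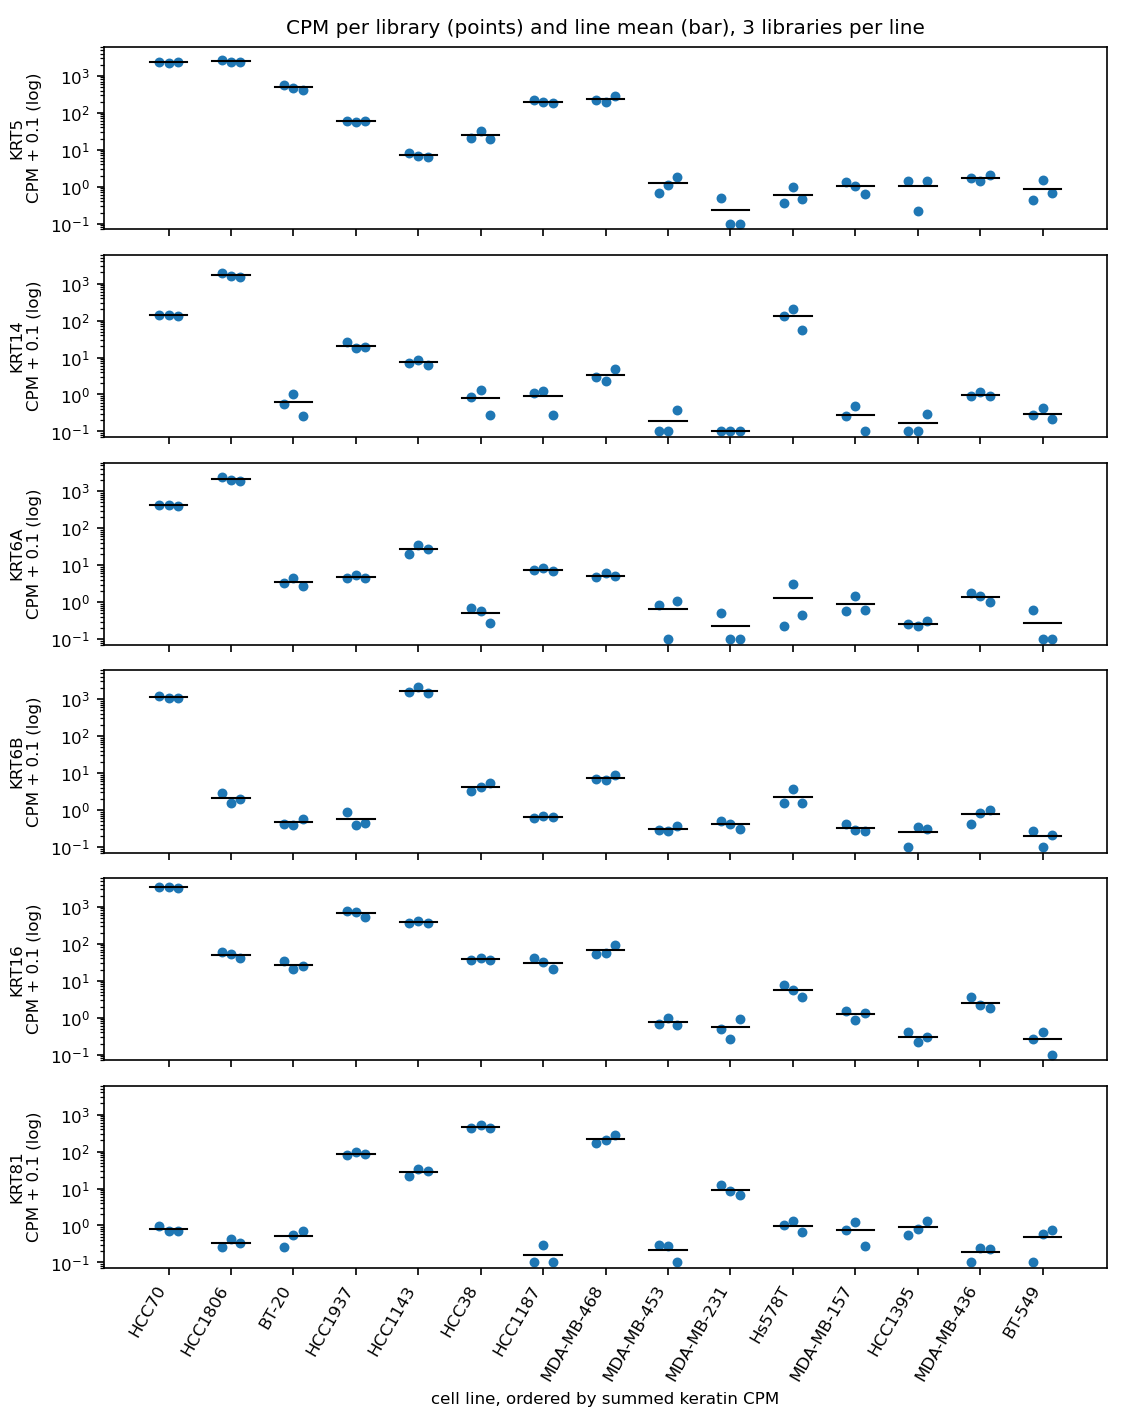
CPM plus 0.1 on a logarithmic axis for KRT5, KRT14, KRT6A, KRT6B, KRT16 and KRT81, with 1 point per library and a bar at the mean of 3 libraries, lines ordered by summed keratin CPM. KRT14 is near 130 CPM in Hs578T where KRT5 is under 1 CPM, and KRT6A and KRT6B peak in different lines.

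Among the near-identical KRT6 genes, different members were high in different lines. KRT6A was 2418, 2058 and 1850 CPM in HCC1806 (mean 2109 ± 288), where KRT6B was 2.81, 1.47 and 1.93. KRT6B was 1536, 2107 and 1448 CPM in HCC1143 (mean 1697 ± 358), where KRT6A was 20.2, 35.5 and 27.9. HCC70 had both, with 421, 419 and 409 CPM of KRT6A and 1181, 1089 and 1087 of KRT6B. The log2 ratio of KRT6A to KRT6B per coding base was 9.98 ± 0.35 in HCC1806, -1.43 ± 0.06 in HCC70 and -5.94 ± 0.28 in HCC1143, with no overlap among libraries. All 3 coding sequences have the same length, so counts of these genes can be set side by side per coding base. The ratio of KRT6A to KRT6B counts was 1072 in HCC1806 and 0.0164 in HCC1143, so in either line few counts stood under the low gene beside the high one.

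KRT6C stayed low. Its means were 19.6 ± 4.45 CPM in HCC1143, 8.96 ± 1.96 in HCC70 and 1.95 ± 0.346 in HCC1806, the lines in which KRT6A or KRT6B exceeded 1000 CPM, and under 1 CPM in the other 12. KRT6B shares 44.8% of its 50-base stretches with KRT6C. Whether the KRT6C counts are reads of KRT6B or KRT6A was not tested.

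KRT16, the type I partner of the KRT6 genes, was highest in HCC70 with 3505, 3520 and 3173 CPM (mean 3400 ± 196). HCC1937 (760, 702 and 526) and HCC1143 (371, 404 and 374) followed without overlap. HCC1937 had this KRT16 with 4.80 ± 0.531 CPM of KRT6A and 0.470 ± 0.263 of KRT6B. HCC1806, with 2109 CPM of KRT6A, had 50.7 ± 8.64 CPM of KRT16. KRT16 was under 1 CPM in BT-549, HCC1395, MDA-MB-231 and MDA-MB-453.

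KRT4 and KRT13, the pair of mucosal stratified epithelia such as the esophagus, were abundant in few lines. KRT4 had counts in all 45 libraries and KRT13 in 33. KRT4 was 490, 492 and 472 CPM in HCC1806, and close to 186 CPM in both BT-20 (228, 157 and 173) and HCC1937 (210, 182 and 166). HCC70 had 157 ± 16.4 CPM and MDA-MB-468 30.4 ± 0.802, and the remaining 10 lines were called lower. KRT13 was 1714, 1574 and 1794 CPM in HCC1806 and 108, 98.3 and 87.4 in HCC1937, and it was under 2 CPM in the other 13 lines. BT-20 and HCC70 therefore had KRT4 at over 100 CPM with 35 and 40 counts of KRT13. An antisense gene over KRT13 had 1213 counts.

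KRT80, a type II keratin with a broad tissue range, was 47.6 ± 5.95 CPM in BT-20, 26.6 ± 4.26 in HCC38 and 18.4 ± 5.44 in BT-549. BT-549 was called higher for no other keratin. KRT10, the type I keratin of differentiated epidermis, was read in all lines at 3.38 to 13.7 CPM, and 13 of 14 neighbours in its order overlapped. Its usual partner KRT1 did not reach 1 CPM in any line mean. KRT10 overlaps TMEM99 on the opposite strand (1534 counts over all libraries). KRT9, a keratin of palm and sole, was 11 ± 1.35 CPM in HCC1937 and 6 ± 0.222 in HCC70.

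Of the hair keratins, KRT81 alone was abundant. HCC38 had 423, 506 and 434 CPM (mean 454 ± 45.3), MDA-MB-468 165, 207 and 275 (mean 215 ± 55.2), HCC1937 88.1 ± 9.08 and HCC1143 27.9 ± 5.84. MDA-MB-231 had 9.29 ± 3.09 CPM, which was called higher against the other 14 lines and lower (log2 fold change -1.29) against the 3 other lines of its own sequencing runs, which include HCC38 and HCC1143. The 10 other lines were called lower and had under 1 CPM. KRT86 was 18.8, 19.7 and 17.9 CPM in HCC38 and 5.52 ± 1.77 in MDA-MB-468. KRT83 was not tested and peaked at 1.20 ± 0.827 CPM in HCC38, from 23 counts. The line with the highest KRT81 was thus also highest for KRT83 and KRT86, which share sequence with it. Whether those reads came from KRT81 was not tested. The type I hair keratins had little: KRT31 and KRT33A had 1 count each over all libraries, KRT34 had 31, and KRT33B and KRT37 were listed at 0.

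The minor members included KRT79 in Hs578T (4.47, 4.50 and 10.6 CPM), KRT75 in MDA-MB-436 (4.75, 5.65 and 8.06), KRT32 in MDA-MB-436 (4.26, 3.27 and 2.38), KRT24 in HCC1806 (5.79, 3.43 and 3.07) and KRT3 in HCC1806 (2.97, 1.96 and 3.53). Each of these was called higher in the line named. The 30 members that were not tested stayed low throughout, and 25 members of the 54 had no line mean of 1 CPM.

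In all, 7 keratins were listed at 0 in all 45 libraries. KRT12, KRT20, KRT23, KRT39 and KRT40 lie side by side within 19 consecutive genes on chromosome 17 that are all at 0 (chr17:40850800-41065879, GRCh38). Of these 19 genes 16 are protein-coding, more than in any of the other stretches of consecutive genes at 0 that were listed. The gene before it, TMEM99, had 1534 counts and the gene after it, KRTAP2-5P, 1. KRT20, a keratin of intestinal and urothelial cells, and KRT23 had no 50-base stretch in common with another annotated gene, nor did KRT12, KRT39 and KRT40. A separate stretch of zeros on chromosome 14 contains DDX24, an RNA helicase that cells use widely, so a 0 in this table may not be a measurement of absence. Why these rows hold 0 was not tested.

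**Figure D4:**
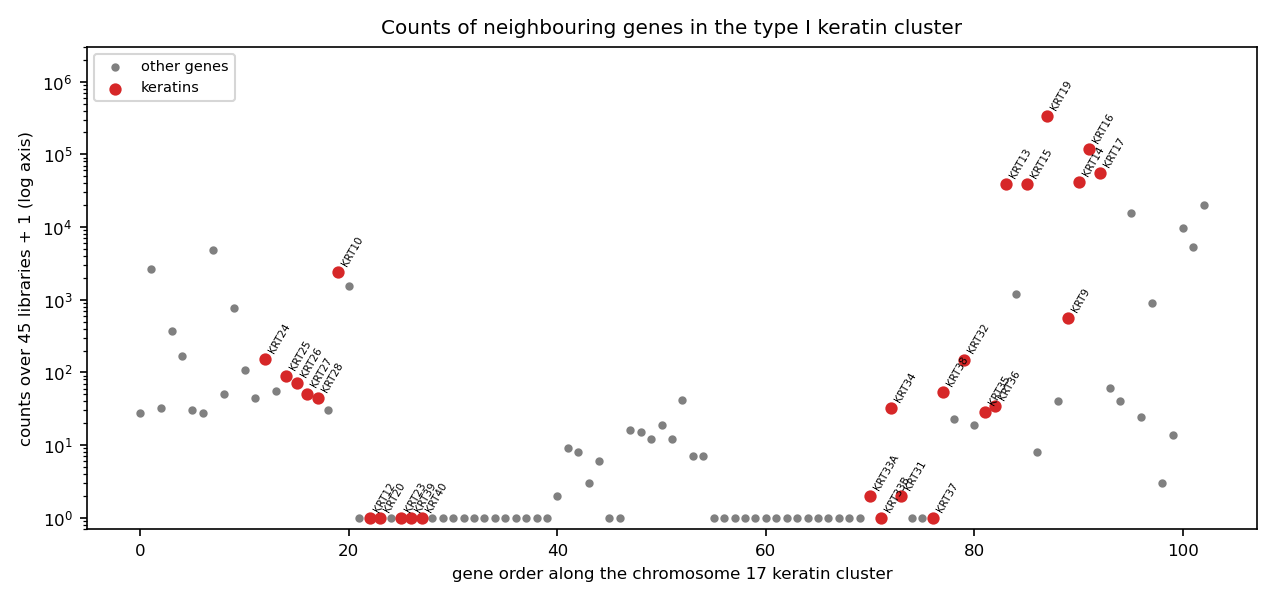
Counts summed over the 45 libraries plus 1 (logarithmic axis) for genes in their order along the chromosome 17 cluster, with keratins in red and other genes in grey. KRT12, KRT20, KRT23, KRT39 and KRT40 sit in an unbroken run of 19 genes at 0, with TMEM99 (1534 counts) between that run and KRT10 (2397 counts).

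The make-up of the keratin pool was compared per base of coding sequence. Among type II keratins, KRT8 made up 85.7% ± 1.87 of the pool in HCC1395 and 90.4% ± 1.72 in MDA-MB-157, KRT7 made up 63% ± 2.39 in HCC38 and 78.3% ± 1.9 in BT-549, KRT6B made up 51.9% ± 4.43 in HCC1143, and KRT5 made up 33.2% ± 1.04 in HCC70 and 30.5% ± 0.0851 in HCC1806. Among type I keratins, KRT18 made up 94.8% ± 0.793 in MDA-MB-157, 89.4% ± 1.16 in HCC1395 and 86.3% ± 0.978 in MDA-MB-436. KRT19 made up 70.1% ± 3.05 in HCC38 and 52.2% ± 1.06 in HCC70, where KRT16 made up another 32.1% ± 0.9. Hs578T divided its type I pool between KRT18 (32.4% ± 14.7) and KRT14 (32.3% ± 13.6). HCC1937 combined KRT18 (46.1% ± 2.15) with KRT15 (29.8% ± 1.37).

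These shares and their order depend on the length used, and coding length was chosen after the data had been seen. Per base of all annotated exons, KRT15 made up 15.5% ± 0.788 of type I in HCC1937, behind KRT16 at 24.5% ± 1.7. KRT6B made up 72.8% ± 3.09 of type II in HCC1143. In HCC1806 KRT6A (37.2% ± 2.32) then stood ahead of KRT5 (29.6% ± 0.369), where per coding base KRT6A had 27.3% ± 1.98. In Hs578T KRT14 (40.5% ± 14.2) then stood ahead of KRT18 (27.2% ± 13.5), within the spread of the libraries. KRT8 and KRT18 led the pools of HCC1395 and MDA-MB-157 with either length, KRT8 with 76.8% and 80.2% and KRT18 with 90.4% and 92.1% per exon base.

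The summed type II to type I ratio per kilobase of exon ran from 0.0973 ± 0.0383 in Hs578T to 5.4 ± 1.71 in BT-549. The next lowest were 0.21 ± 0.0159 in HCC1395, 0.232 ± 0.0455 in MDA-MB-436 and 0.294 ± 0.04 in MDA-MB-157, and from 0.389 to 1.26 in the other 10 lines. Per base of coding sequence the ratio was 0.115 in Hs578T, 0.275 in MDA-MB-436, 0.335 in HCC1395, 0.481 in MDA-MB-157 and 8.93 in BT-549, and from 0.523 to 1.54 in the others. The mean ratio was under 1 with either length in 9 lines, which were these 4 low lines and HCC70, HCC1806, MDA-MB-231, MDA-MB-453 and MDA-MB-468. The BT-549 ratio rests on KRT7, since its type I pool is small.

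**Figure D5:**
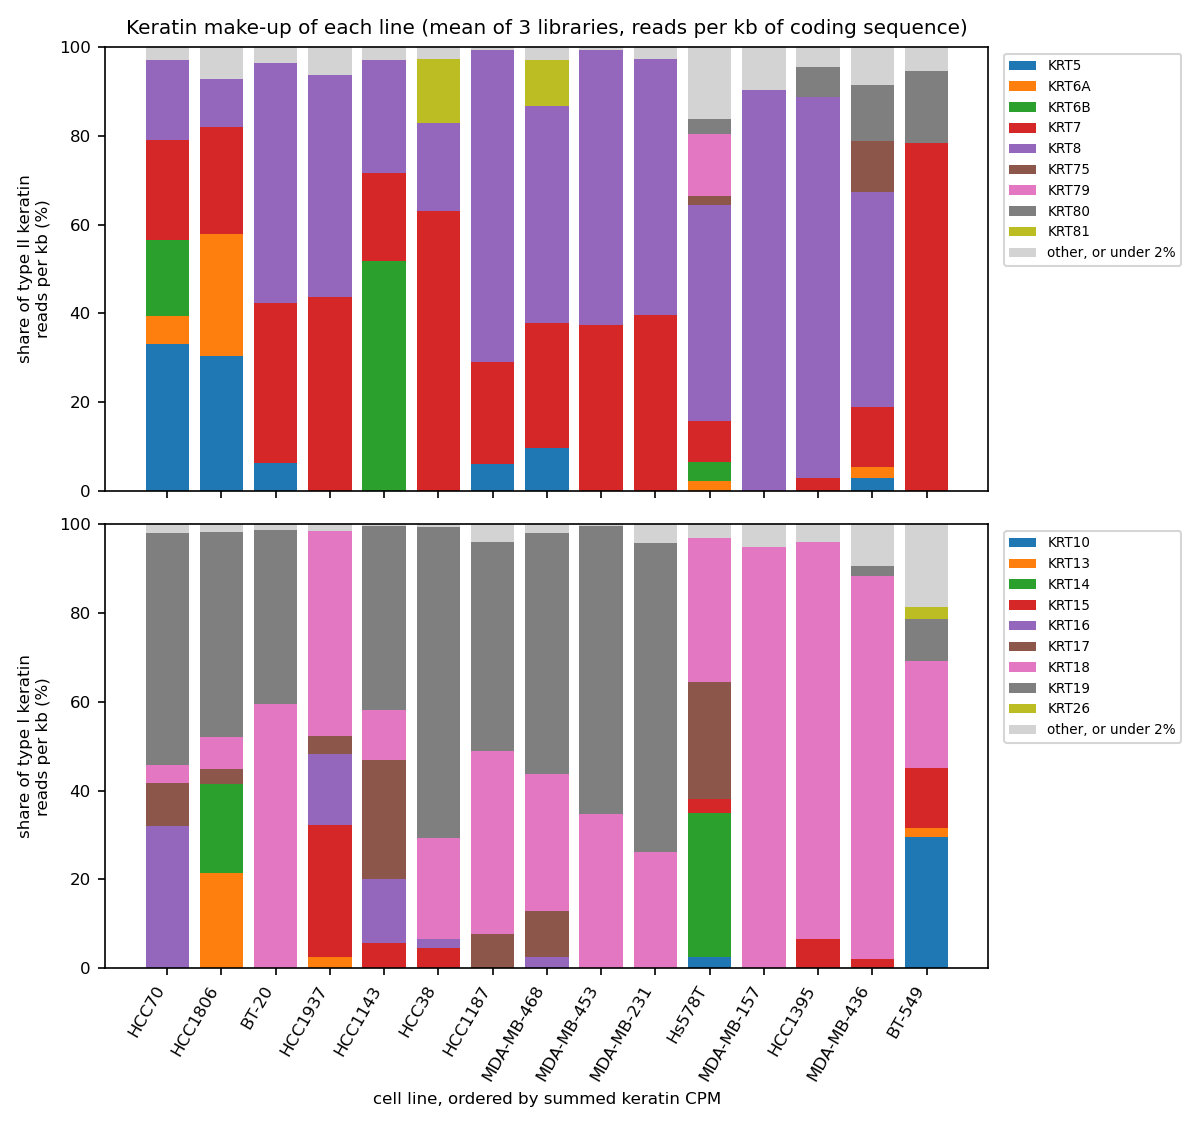
Share of the type II (top) and type I (bottom) keratin reads per kilobase of coding sequence held by each gene, as stacked bars from 0 to 100% per line (mean of 3 libraries), with genes under 2% in grey. KRT8 holds 90.4% of type II and KRT18 94.8% of type I in MDA-MB-157, while HCC70 and HCC1806 spread theirs over several genes.

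Textbook partners were compared over the 15 line means of log2 CPM, as a description, since the genes of a pair share each library's depth and scaling. KRT8 and KRT18 had a Pearson r of 0.92 (Spearman rho 0.97). KRT7 and KRT19 had 0.82 (0.75), KRT8 and KRT19 0.80 (0.72), KRT4 and KRT13 0.74 (0.61), KRT6A and KRT16 0.72 (0.83), and KRT6B and KRT17 0.68 (0.82). KRT5 and KRT14 had 0.57 (0.60), which fell to 0.15 without HCC1806 and HCC70 and so rests on these lines. KRT5 and KRT15 had 0.59 (0.61), which was still 0.59 without the same lines. The genes most like KRT5 over the 15 lines, among 15100 protein-coding genes that are not keratins, were IVL (0.95), INAVA (0.92), CAPN1 (0.91), LYPD6B (0.90) and PLEKHG6 (0.90). Those most like KRT18 were RTKN and PRKCD (both 0.88), PRRG4 (0.86), TMEM184A (0.84) and PATJ (0.83). Those most like KRT81 included TMEM56-RWDD3 (0.82), RWDD3 (0.81), RBCK1 and SIRT5 (both 0.80). Spearman rho was 0.80 to 0.91 for the genes named for KRT5 and 0.69 to 0.95 for those named for KRT18. For the genes named for KRT81 it was 0.65 to 0.83, and KRT81 was under 1 CPM in 10 of the 15 lines. IVL encodes involucrin, a protein of the cornified envelope.

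Genes that act with keratins were read from lists. Desmosomes anchor keratin filaments at cell contacts. Of 14 desmosome genes, 10 were higher and 1 lower in HCC70, 9 higher and 0 lower in each of HCC1143, HCC1806 and HCC38, 8 higher and 1 lower in HCC1187, and 8 higher and 2 lower in HCC1937. Of all genes, 13.8% to 18.4% were called higher in these lines. The median log2 fold change of the desmosome genes was 2.67 in HCC70 and 2.04 in HCC1806, where those of all genes were -0.11 and -0.04. In HCC1395, 12 were lower, and BT-549 (10 lower), MDA-MB-157 (9) and MDA-MB-436 (7) leaned the same way, against 10.7% to 17.7% of all genes called lower there. Hs578T, another line with little keratin, was mixed, with 3 higher and 5 lower (20.9% and 9.56% of all genes). BT-20, among the 3 lines with the most keratin, had 4 higher and 5 lower (14.2% and 11.3%). DSG3 and DSC3, the desmosomal cadherins of basal keratinocytes, were 661 ± 90 and 602 ± 19.2 CPM in HCC1143 and 0.155 ± 0.269 and 0.775 ± 0.0143 in BT-20.

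Hemidesmosomes tie keratins to the basement membrane. Of 9 such genes 8 were higher in HCC1806, 7 in HCC1937 and 7 in MDA-MB-231, a line with little KRT5 or KRT14, against 15.9%, 14.5% and 15.0% of all genes. COL17A1, a hemidesmosome collagen, was 1257 ± 41.2 CPM in HCC1806 and 2.03 ± 0.51 in HCC70, although both lines were rich in KRT5. HCC1187 had 8 lower (12.5% of all genes) with 201 CPM of KRT5. Among 9 keratin linkers and organisers, PPL (periplakin) was highest in HCC70, at 454 ± 4.7 CPM, and lowest in MDA-MB-468, at 0.324 ± 0.294. Of 13 cornified envelope genes measured only 4 were tested, and a gene kept through the lines where it is high is likely to be called higher there. In HCC70, 4 of these 4 were higher, and in HCC1806 and HCC1937 3 of 4, against 17.7%, 15.9% and 14.5% of all genes. SPRR1B, CSTA and SBSN each had a line at 0 counts, so their fold changes depend on the prior count. The highest line means of SPRR1B and SBSN were 2.16 and 3.04 CPM. CSTA was 148 ± 18.1 CPM in HCC1806.

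Of 17 epithelial and keratinocyte transcription factors, 14 were higher in HCC70, 13 in HCC1937 and in MDA-MB-468, and 12 in HCC1806, where TP63, the master regulator of basal keratinocytes, was 413 ± 14.7 CPM. Of all genes, 14.5% to 17.7% were called higher in these lines. In HCC1395 and Hs578T, 13 of 17 were lower, against 17.7% and 9.56% of all genes. MDA-MB-453, with almost no basal keratin, still had 10 higher and 4 lower (17.7% and 14.6% of all genes). The 6 repressors of epithelial genes leaned the other way: MDA-MB-157 had 6 higher, BT-549 and Hs578T had 5 each, and 4 were higher in HCC1395 and in MDA-MB-436. The share of all genes called higher in these lines was 13.3% to 20.9%. HCC1395 also had 1 repressor lower (17.7% of all genes). The keratin-rich lines were mixed, with 2 higher and 4 lower in HCC70 (17.7% and 22.9% of all genes) and 2 and 2 in HCC1806 (15.9% and 13.7%). MDA-MB-231 had 3 higher and 2 lower (15.0% and 10.5%). ZEB1 was 186 ± 11 CPM in BT-549. VIM, the intermediate filament gene of mesenchymal cells, was highest in Hs578T (3593 ± 1567 CPM), followed by BT-549 (2945 ± 323), HCC1395 (2905 ± 245) and MDA-MB-157 (2810 ± 185). HCC1143 had VIM at 1334 ± 245 CPM together with 5447 CPM of keratins, and MDA-MB-231 had it at 1561 ± 58.3 with 1632 CPM of keratins.

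The label epithelial was checked against 14 epithelial markers that are not keratins. Their summed level was 1373 to 4924 CPM in HCC70, HCC1806, BT-20, HCC1937, HCC1143, HCC38, HCC1187, MDA-MB-468 and MDA-MB-453, and 387 in MDA-MB-231. It was 81.2 in BT-549, 27.1 in MDA-MB-157, 20.2 in MDA-MB-436, 16.9 in HCC1395 and 13.9 in Hs578T, in which CLDN3 and MARVELD2 were at 0. In those 5 lines 11 to 13 of the 14 were lower, against 9.56% to 17.7% of all genes. Endothelial markers summed to at most 129 CPM (BT-20) and blood cell markers to at most 34.7 CPM (HCC70) in any line. Most of each of these sums came from 1 gene, CDH5 at 118 ± 11.2 CPM in BT-20 and CD14 at 33.3 ± 4.03 CPM in HCC70.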

How the data were processed

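Per the labels' protocols, RNeasy kits gave total RNA, Ribo-Zero Gold removed ribosomal RNA, and ScriptSeq v2 was the library kit. Per the submitters' processing notes, bcl2fastq 2.20.0.422, FastQC, MultiQC, Trimmomatic, STAR and featureCounts were used with GRCh38.p12. The authors deposited raw read counts per gene and library. Annotation release, strand setting and handling of reads with several alignments were not given in the sources used here. Of 64485 identifiers, 90.4% matched GENCODE 29, which gave symbols, types, positions and coding sequences.

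From the deposited counts, TMM-scaled CPM, and log2 CPM with a prior count of 2, were computed in edgeR 4.0.16 (R 4.3.3). Genes passing filterByExpr (minimum count 10, minimum total 15) were fitted over 45 libraries with 1 coefficient per line. Two-sided quasi-likelihood tests, adjusted by Benjamini-Hochberg over 20587 genes, compared all lines and each line with the mean of the other 14. The SE is the size of the log2 fold change over the square root of F. It therefore does not give the spread of the 3 libraries of a line, for which the SD of the level stands. Where another line had 0 counts of a gene, the mean log level of the other lines has no lower bound, the test cannot call the gene lower, and the pair is not defined; the background rests on the same test. The analysis was tested on simulated data. DESeq2 1.42.0, other filters and scalings, a replicate block, run sets and left-out replicates were the alternatives, and coding length was added after the data had been seen. The replicate number is the sequencing run in the 11 lines of runs 3 to 5. Deviations of libraries with the same number correlated with a median r of 0.0562 over 165 pairs, against -0.0297 over 330 pairs with different numbers. Runs 1 and 2 held the other 4 lines.

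The members, gene lists and rules were chosen with earlier results of these data known. Named were the main epithelial and hair keratins, every other keratin with a line mean of at least 10 CPM, and for each line the 2 highest and 2 lowest fold changes that passed. For each of KRT5, KRT18 and KRT81 the 5 most similar genes by Pearson r were named, except 1 for KRT81 that is not reported here. Other lists covered desmosome, hemidesmosome, keratin linkers, cornified envelope, other intermediate filaments, transcription factors, repressors, and epithelial, fibroblast, endothelial and blood cell markers. Intervals cover counting error only, and the precision of a level is its SD over 3 libraries.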

Additional observations from a re-analysis of the deposited data

How the results depend on the processing

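The number of keratins that differed among the lines was 24 of 24 tested under the scaling, DESeq2, replicate block and left-out alternatives, 19 of 19 with the stricter filter, 23 of 23 within runs 3 to 5, and 31 of 47 with no filter, which tests more members. The replicate block, which uses the replicate number as a term, gave 24, changed none of the 51 named calls and moved none of 31 counts by over 1.5 times. The same held without Hs578T replicate 2.

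Counts of keratins called in a line moved by over 1.5 times as follows, and apart from the number of genes tested the cause was not tested. With DESeq2's size factors 1 was lower in HCC1143. With no filter 2 were higher in BT-549, 8 in Hs578T, 1 in MDA-MB-157 and 5 in MDA-MB-436. With the stricter filter 1 was lower in HCC1143, and Hs578T had 3 higher and MDA-MB-436 had 0. Within the run set 2 were lower in HCC1806 and 0 in HCC70, and Hs578T had 3 higher and MDA-MB-231 had 2. Leaving out each replicate gave 1 to 2 lower in HCC1143 (1 without replicate 1 or 3), 2 to 4 in HCC38 (2 without replicate 1), and 0 to 1 in HCC1806 and in HCC70 (0 without replicate 2). Within the run set the fold change reversed for KRT5 in HCC1143 (2.54) and KRT81 in MDA-MB-231 (-1.29). A left-out replicate can put another line at 0 counts, and the fold change is then not defined. DESeq2's size factors moved the median of all genes by 0.121 in Hs578T and 0.105 in MDA-MB-157 (log2).

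Pearson r moved with a prior count of 0.5 to 0.60 (KRT5 and KRT14), 0.76 (KRT6A and KRT16) and 0.70 (KRT6B and KRT17). In the 11 lines of runs 3 to 5 it was 0.95 (KRT8 and KRT18), 0.77 (KRT7 and KRT19, KRT8 and KRT19), 0.76 (KRT5 and KRT14) and 0.70 (KRT5 and KRT15). Without the 2 lines farthest from the median it was 0.87 (KRT8 and KRT18), 0.78 (KRT7 and KRT19), 0.71 (KRT8 and KRT19), 0.15 (KRT5 and KRT14), 0.85 (KRT6A and KRT16), 0.57 (KRT6B and KRT17) and 0.62 (KRT4 and KRT13).

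The type II to type I ratio moves with the length used by construction. Without length correction and per coding length it was 1.37 and 1.15 in BT-20, 8.63 and 8.93 in BT-549, 1.59 and 1.31 in HCC1187, 0.392 and 0.335 in HCC1395, 0.983 and 0.786 in HCC1806, 1.36 and 1.23 in HCC1937, 1.81 and 1.54 in HCC38, 0.658 and 0.523 in HCC70, 0.569 and 0.481 in MDA-MB-157, 0.995 and 0.83 in MDA-MB-231, 0.824 and 0.683 in MDA-MB-453, and 0.867 and 0.713 in MDA-MB-468. Without length correction it was 0.323 in MDA-MB-436. BT-20, HCC1187 and HCC1937 thus lie under 1 per kilobase of exon and above 1 otherwise. Depth limits the members with few counts, whose low levels carry wide counting error.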
